A study of Mus musculus with 6 samples.

Results

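The genes of MHC class I antigen presentation were followed in RNA sequencing of mouse hypothalamus, the brain region that governs feeding, body temperature, hormone release and sleep. They are 10 genes taken by symbol from a table of 18228 genes: the heavy chains H2-K1, H2-D1 and H2-T23, the light chain B2m, the peptide transport and loading genes Tap1, Tap2 and Tapbp, and the immunoproteasome subunits Psmb8, Psmb9 and Psmb10. Each of the 10 is in the table and passed the filter on low counts, as did 14702 genes in all. The aged group held 3 mice of 22 months and the young group 3 mice of 12 weeks, drawn at random after a behavioural experiment with 5 mice per group, in a search for genes that accompany cognitive decline with age. The labels name no genetic change or drug treatment in either group, and give no strain, sex, litter or batch.

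Class I molecules display peptides from proteins made inside the cell. The proteasome cuts these proteins, and under interferon 3 inducible catalytic subunits (Psmb8, Psmb9 and Psmb10) take the place of the constitutive ones (Psmb5, Psmb6 and Psmb7). The transporter formed by Tap1 and Tap2 carries peptides into the endoplasmic reticulum, where tapasin (Tapbp) holds the transporter next to an empty heavy chain. The heavy chain, bound to B2m, then takes a peptide to the cell surface, where CD8 T cells and natural killer (NK) cells read it. Nlrc5 is the transcriptional activator dedicated to class I genes. In the healthy brain, microglia and endothelial cells are the cells best known to carry class I, and neurons carry little.

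Each library held 17208291 to 18884403 counted reads. All 15 hypothalamic marker genes examined, such as Avp, Hcrt and Pmch, were detected, and their summed level was 1335 to 1449 CPM (read counts scaled to library size by edgeR's TMM factors) in aged libraries and 1363 to 1534 CPM in young libraries. The sums hide opposite shifts of single markers: Avp was higher in aged libraries (log2 fold change 0.60, edgeR adjusted p = 0.00248). Hcrt was lower (-0.82, edgeR adjusted p = 0.0161), and the other 13 did not pass at an adjusted p under 0.05. Of the 15, 10 had an unadjusted p under 0.05 in edgeR, against 26.2% of all genes tested. Cortical and thalamic markers summed to 109 to 118 CPM in aged libraries and to 165 to 446 CPM in young libraries, with the highest value in young replicate 2. Every young library lay above every aged one in this sum. Transcripts of 4 Y-linked genes summed to 184 to 203 CPM in aged libraries and to 1.38 to 1.88 CPM in young libraries. This split falls between the age groups, as does that of the cortical and thalamic sum. Age, sex and the content of cortical and thalamic transcripts therefore cannot be told apart in any comparison below. In bulk tissue, more cells of a type and more RNA per cell cannot be told apart either.

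Of the 10 genes, 8 lie on chromosome 17, B2m on chromosome 2 and Psmb10 on chromosome 8. Promoter windows, from 250 bases before to 50 bases after an annotated start, were read from RefSeq (GRCm38.p6) for 9 of the 10, all but Tap2. The windows of both classical heavy chains, of B2m, H2-T23 and Psmb8, and the window shared by Tap1 and Psmb9 are shown because they show which short motifs the members have in common. Capitals mark matches, on either strand, to the kappa B site of class I genes, to TGACGC (core of the X2 box, a part of the enhanceosome on which Nlrc5 acts), CCAAT (Y box), to the core of the interferon-stimulated response element and to TTCNNNGAA (GAS, the interferon gamma activated site). No 2 matches overlapped within a window. The windows are given 5′ to 3′ on the strand of the gene, at chr17:34000298-34000597 (minus) for H2-K1, chr17:35262844-35263143 (plus) for H2-D1, chr2:122147437-122147736 (plus) for B2m, chr17:36032652-36032951 (minus) for H2-T23, chr17:34197945-34198244 (plus) for Psmb8 and chr17:34187306-34187605 (plus) for Tap1.
H2-K1: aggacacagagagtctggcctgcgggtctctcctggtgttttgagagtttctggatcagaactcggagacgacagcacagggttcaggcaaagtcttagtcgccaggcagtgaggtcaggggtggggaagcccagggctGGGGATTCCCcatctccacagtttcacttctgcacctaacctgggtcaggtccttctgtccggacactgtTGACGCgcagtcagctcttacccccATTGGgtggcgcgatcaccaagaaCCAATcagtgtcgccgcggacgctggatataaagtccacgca
H2-D1: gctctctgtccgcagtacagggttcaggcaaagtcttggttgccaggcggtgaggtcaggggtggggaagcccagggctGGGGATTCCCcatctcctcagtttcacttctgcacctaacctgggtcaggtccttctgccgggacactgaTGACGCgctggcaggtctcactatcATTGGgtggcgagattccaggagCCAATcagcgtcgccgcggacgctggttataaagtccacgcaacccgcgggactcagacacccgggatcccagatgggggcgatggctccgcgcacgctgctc
B2m: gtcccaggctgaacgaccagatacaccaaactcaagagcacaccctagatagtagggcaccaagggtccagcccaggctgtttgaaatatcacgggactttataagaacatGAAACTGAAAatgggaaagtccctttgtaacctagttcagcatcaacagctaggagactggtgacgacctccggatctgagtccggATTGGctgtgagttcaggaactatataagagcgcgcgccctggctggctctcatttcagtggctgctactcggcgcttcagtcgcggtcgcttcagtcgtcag
H2-T23: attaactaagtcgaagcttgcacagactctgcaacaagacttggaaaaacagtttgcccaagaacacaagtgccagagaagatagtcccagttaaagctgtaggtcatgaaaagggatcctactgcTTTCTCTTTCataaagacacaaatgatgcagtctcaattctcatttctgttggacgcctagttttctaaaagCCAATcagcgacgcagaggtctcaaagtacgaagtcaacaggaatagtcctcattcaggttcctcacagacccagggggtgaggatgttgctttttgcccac
Psmb8: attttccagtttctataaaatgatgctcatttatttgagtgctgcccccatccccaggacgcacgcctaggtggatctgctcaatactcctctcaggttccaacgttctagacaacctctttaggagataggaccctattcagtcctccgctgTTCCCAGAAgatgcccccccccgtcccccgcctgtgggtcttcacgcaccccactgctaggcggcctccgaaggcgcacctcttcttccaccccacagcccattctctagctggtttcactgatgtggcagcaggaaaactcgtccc
Tap1: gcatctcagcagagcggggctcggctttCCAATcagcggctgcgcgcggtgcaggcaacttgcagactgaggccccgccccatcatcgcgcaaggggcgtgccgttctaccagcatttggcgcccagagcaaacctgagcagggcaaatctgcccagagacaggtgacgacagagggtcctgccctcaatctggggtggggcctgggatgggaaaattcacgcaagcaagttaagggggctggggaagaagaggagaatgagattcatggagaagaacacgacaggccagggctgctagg

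H2-K1 and H2-D1 carried the same motifs in the same order: a kappa B site, an X2 core and a Y box on each strand. Over 239 aligned bases their windows were identical at 211 (88.3%). The kappa B site began 111 bases before the start in H2-K1 and 171 bases before it in H2-D1, and the X2 core 41 and 101 bases before it. A second annotated start of H2-K1 gave the same 4 matches, with the kappa B site 125 and the X2 core 55 bases before it. These distances therefore depend on which start is used. The kappa B letters were rare, in 0.107% of 32851 promoter windows of all genes, and among the 9 members with a window they were found in H2-K1 and H2-D1. The X2 core stood in 7.40% of all windows and in the same pair of members. The interferon-stimulated response element core, in 3.44% of all windows, began 139 bases before the start of B2m and 124 bases before that of H2-T23. GAS, in 8.30% of all windows, began 97 bases before the start of Psmb8. Y boxes, in 37.4% of all windows and 41.1% of all genes with a window, were found in 7 of the 9 members. Tap1 and Psmb9 are transcribed away from each other from starts 225 bases apart, so their windows share 275 bases, and the CCAAT of one is the CCAAT of the other. The Psmb10 window held none of the 5 motifs. A match is a description of letters, not of a bound factor. Each motif was searched as a fixed pattern of letters, so sites that vary from it are not marked. A window without a match could still hold such a site.

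**Figure D1:**
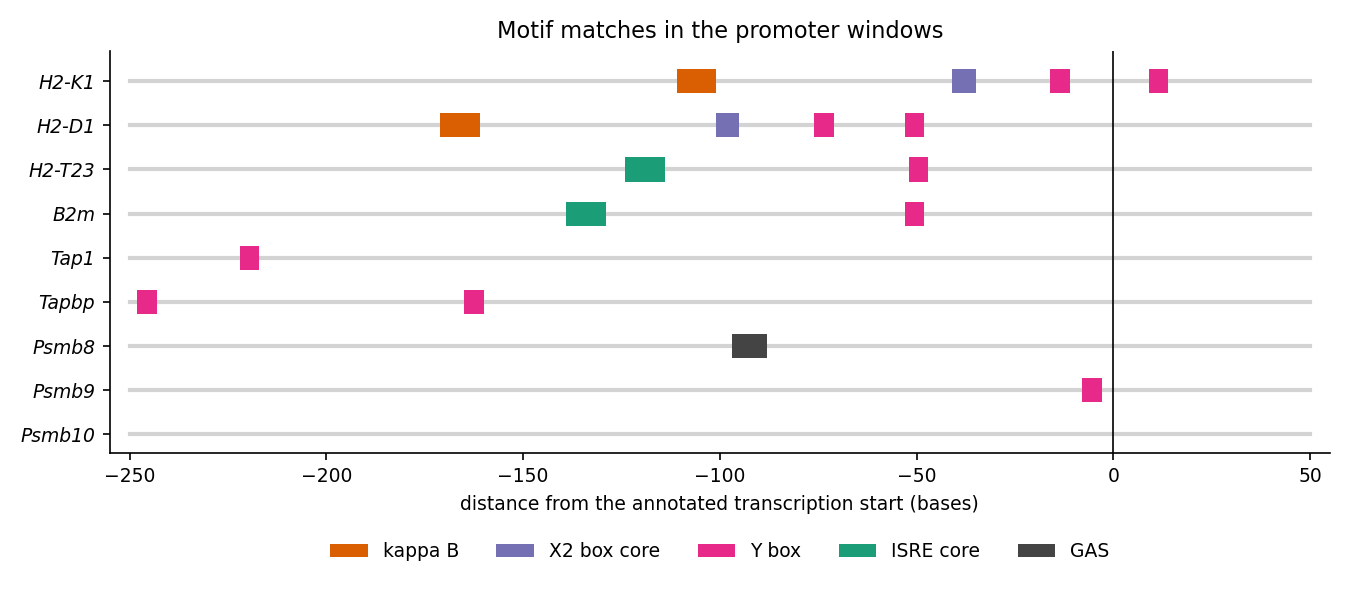
Positions of the motif matches in the promoter windows of the 9 members with a RefSeq window (rows), by distance in bases from the annotated transcription start (vertical line); coloured boxes are matches to the 5 motifs. H2-K1 and H2-D1 share 1 arrangement, which lies farther from the annotated start in H2-D1. B2m and H2-T23 each hold a match to the interferon-stimulated response element core, and variants of a motif were not searched.

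Classical heavy chains, the immunoproteasome subunit Psmb8 and the transporter subunit Tap2 were higher in aged hypothalamus. Of the 10 genes, 4 rose, 0 fell and 6 did not pass edgeR's quasi-likelihood test (Benjamini-Hochberg adjusted p under 0.05 over all 14702 genes), where 6.86% of all genes tested passed, 3.22% rose and 3.64% fell. In 7 of the 10 every aged library stood above every young library, against 15.5% of all genes tested, in 0 every aged library stood below, against 16.2%, and in the other 3 (Tapbp, Psmb9 and Psmb10) the groups overlapped. The median log2 fold change of the 10, aged over young, was 0.50, and that of all genes tested was -0.0035. At an unadjusted p under 0.05, 7 of the 10 differed, all of them higher, where 26.2% of all genes tested differed and 12.6% were higher. Because the list was chosen with earlier results of these data known, its distance from these shares is not an independent test. No member fell in DESeq2, limma-voom or limma-trend on FPKM. Leaving out 1 library gave 2 members higher without aged replicate 3 or young replicate 1, and 3 to 5 without any of the other 4. Aged libraries also varied more: the standard deviation of log2 CPM was larger among aged than among young libraries in 9 of the 10, against 49.5% of all genes tested.

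**Figure D2:**
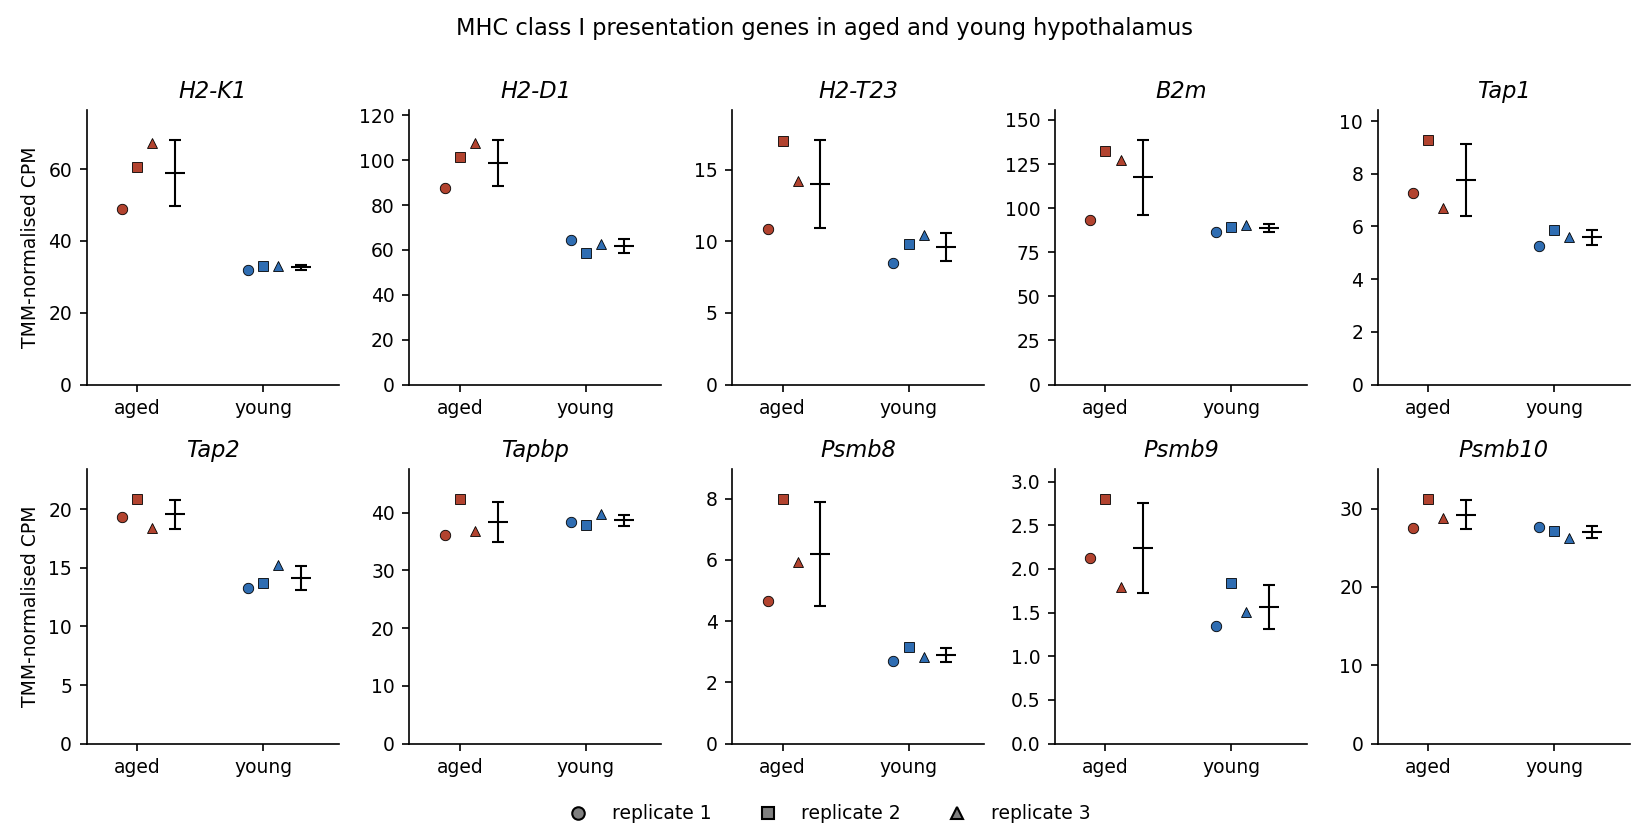
TMM-normalised CPM of the 10 class I presentation genes in each aged (red) and young (blue) library; symbols mark replicates, and the bar beside each group is the mean ± SD of 3 mice. In 7 genes all aged points lie above all young points, while Tapbp, Psmb9 and Psmb10 overlap.

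H2-K1, a classical class I heavy chain, stood at 48.9, 60.5 and 67.3 CPM in aged replicates 1, 2 and 3, against 31.9, 33.0 and 32.9 CPM in young replicates 1, 2 and 3. All aged libraries lay above all young ones, and the young libraries were nearly equal. H2-K1 averaged 58.9 ± 9.28 CPM in aged and 32.6 ± 0.603 CPM in young hypothalamus (SD, n = 3 each), a 1.80-fold difference (log2 fold change 0.85 ± 0.11 SE, edgeR adjusted p = 0.00468). The call held in each of 19 alternative settings, with log2 fold changes of 0.75 to 0.98.

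H2-D1, the other classical heavy chain of the C57BL/6J reference genome, stood at 87.4, 101 and 108 CPM in aged libraries, against 64.5, 58.5 and 62.7 CPM in young libraries. The groups again did not overlap, and in both heavy chains aged replicate 1 was the lowest of the aged libraries. H2-D1 averaged 98.8 ± 10.4 CPM in aged and 61.9 ± 3.10 CPM in young hypothalamus (SD, n = 3 each). The difference was 0.67 ± 0.08 SE on the log2 scale (adjusted p = 0.00453 in edgeR), and this call too held in 19 of 19 settings. By p-value H2-D1 ranked 48th and H2-K1 52nd of 14702 genes.

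H2-T23, a non-classical heavy chain that shows leader peptides of other class I molecules to inhibitory receptors of NK and T cells, stood at 10.8, 17 and 14.2 CPM in aged libraries, against 8.5, 9.82 and 10.5 CPM in young libraries. Aged replicate 1 lay just above the highest young library. The difference did not pass (log2 fold change 0.55 ± 0.16 SE; adjusted p = 0.0719 in edgeR). It passed without aged replicate 1 (adjusted p = 0.0443) and in DESeq2 (adjusted p = 0.0312).

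B2m, the light chain shared by all class I heavy chains, stood at 93.2, 132 and 127 CPM in aged libraries, against 86.3, 89.4 and 90.6 CPM in young libraries. Aged replicates 2 and 3 stood well above the young libraries, and aged replicate 1 close to them. B2m averaged 118 ± 21.2 CPM in aged and 88.8 ± 2.24 CPM in young hypothalamus (SD, n = 3 each) and did not pass (log2 fold change 0.41 ± 0.12 SE, edgeR adjusted p = 0.0642). Its adjusted p was 0.0110 without aged replicate 1, 0.00782 in DESeq2 and 0.0469 with no filter on low counts.

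Heavy chain genes resemble each other, so reads of one can be assigned to another or dropped. Of all 50-base stretches of the longest coding transcript in GENCODE M21, 8.79% of H2-K1, 14.3% of H2-D1 and 28.8% of H2-T23 also occur in other genes, against none of B2m, Psmb8, Psmb9 and Psmb10. Heavy chain values are uncertain for this reason, and alleles that differ from the reference strain could add to it. The shares do not measure how many reads were assigned wrongly or dropped, which was not tested. To remove the division between rows, the 13 rows of H2-K, H2-D, H2-Q and H2-T genes were added into 1, in which H2-K1 and H2-D1 hold 62.2% of the reads. The merged row stood at 213, 257 and 261 CPM in aged libraries, against 167, 153 and 166 CPM in young libraries. Its log2 fold change was 0.59 ± 0.08 SE (edgeR adjusted p = 0.00671). H2-K1 and H2-D1, which rose by themselves, hold most of these reads, so this does not show a rise of the other rows. Merging also does not recover reads that were dropped.

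Tap2, a subunit of the peptide transporter, stood at 19.3, 20.9 and 18.4 CPM in aged libraries, against 13.3, 13.7 and 15.2 CPM in young libraries. The groups did not overlap and the aged libraries lay close together. Tap2 rose 1.39-fold (log2 fold change 0.47 ± 0.09 SE; adjusted p = 0.0209 in edgeR). The adjusted p was 0.0281 to 0.0729 without single libraries. The call was lost without aged replicate 1 (0.0666), aged replicate 3 (0.0635), young replicate 1 (0.0729) or young replicate 2 (0.0514).

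Tap1, the other subunit, stood at 7.29, 9.29 and 6.69 CPM in aged libraries, against 5.27, 5.86 and 5.62 CPM in young libraries. Its fold change was as large as that of Tap2 (log2 fold change 0.48 ± 0.15 SE), but with more spread it did not pass (edgeR adjusted p = 0.0862), and it did not pass in any of 20 settings. The Tap1 to Tap2 ratio of FPKM, a level that corrects reads for gene length and library total, was 31.6% to 38.7% in aged and 32.0% to 37.1% in young libraries. The mean log2 ratio differed by -0.01 (two-sided exact permutation p = 0.9, n = 3 each).

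Tapbp, the loading factor tapasin, showed no such difference. It stood at 36.2, 42.4 and 36.8 CPM in aged libraries, against 38.3, 37.9 and 39.8 CPM in young libraries. The log2 fold change was -0.01 (95% interval -0.19 to 0.17; edgeR adjusted p = 0.968), an interval that lies below the estimates for Tap1 and Tap2, and its sign changed between scalings. Of 7 other loading and trimming genes tested, 0 passed in edgeR, DESeq2, limma-voom or limma-trend on FPKM, and 2 had an unadjusted p under 0.05, a share near the 26.2% of all genes tested. These were the chaperone Canx, at 404 to 439 CPM in aged and 457 to 465 CPM in young libraries, and the aminopeptidase Lnpep, at 12.9 to 25.7 CPM in aged and 23 to 62.8 CPM in young libraries. The median log2 fold change of the 7 was -0.07.

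Psmb8, the inducible subunit that replaces Psmb5, had the largest fold change of the 10. It was counted in 83, 154 and 103 reads in aged libraries, against 46, 55 and 51 reads in young libraries, which is 4.65, 8.0 and 5.94 CPM against 2.70, 3.16 and 2.84 CPM. Every aged library lay above the highest young one. Psmb8 rose 2.14-fold (log2 fold change 1.10 ± 0.21 SE, edgeR adjusted p = 0.0205). Without aged replicate 2, its highest library, the log2 fold change was 0.88 (adjusted p = 0.0214). The call was lost without aged replicate 3 (adjusted p = 0.0666), young replicate 1 (0.0694) or young replicate 3 (0.0625).

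Psmb9, which replaces Psmb6, had the fewest reads of the 10, with 38, 54 and 31 reads in aged libraries, against 23, 32 and 27 reads in young libraries. The 95% Poisson intervals of single libraries, which cover counting error only, were as wide as 40.6 to 70.5 reads in aged replicate 2 and 14.6 to 34.5 reads in young replicate 1. The groups overlapped, and the difference did not pass (log2 fold change 0.52, 95% interval -0.01 to 1.06; edgeR adjusted p = 0.200). The interval runs from about no difference to just under the log2 fold change of Psmb8.

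Psmb10, which replaces Psmb7, had far more reads and showed little difference. It stood at 27.6, 31.3 and 28.8 CPM in aged libraries, against 27.7, 27.1 and 26.3 CPM in young libraries, with aged replicate 1 inside the young range. The log2 fold change was 0.11 (95% interval -0.06 to 0.29; edgeR adjusted p = 0.379). The 95% intervals of Psmb8 and Psmb10 did not overlap.

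Per gene length, the members kept nearly the same order in both groups. B2m was highest, at a mean of 138 FPKM in aged and 102 FPKM in young hypothalamus, and Psmb9 lowest, at 2.04 FPKM in aged and 1.39 FPKM in young hypothalamus, a 67.9-fold span in aged and a 73.5-fold span in young libraries. After B2m, the order in young libraries was H2-D1 (35.3 FPKM), Psmb10 (21.0), H2-K1 (15.1), Tapbp (13.9), H2-T23 (7.21), Tap2 (5.6), Psmb8 (2.34) and Tap1 (1.93), and every neighbouring pair had separate ranges. In aged libraries H2-K1 (27.9 FPKM) stood above Psmb10 (23.2 FPKM), the reverse of their order in young libraries, although their aged ranges overlapped. The aged ranges of H2-T23 and Tap2 and of Tap1 and Psmb9 also overlapped.

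Ratios of FPKM within a library do not depend on library scaling, and 9 were compared by exact permutation tests, in which 3 against 3 mice cannot give a p below 0.1 and none passes after adjustment. The Psmb8 to Psmb5 ratio was 5.05%, 7.83% and 6.61% in aged libraries, against 3.48%, 3.27% and 3.25% in young libraries. Its mean log2 ratio was higher by 0.94 in aged libraries, with no overlap (two-sided exact p = 0.1, adjusted p = 0.18). The Psmb9 to Psmb6 ratio was 1.48% to 2.41% in aged and 1.43% to 1.80% in young libraries (exact p = 0.3). The Psmb10 to Psmb7 ratio was 23.2%, 22.9% and 23.2% in aged libraries, against 27.5%, 23.3% and 23.3% in young libraries. It was the 1 immunoproteasome ratio whose aged values lay lower (exact p = 0.1, adjusted p = 0.18). Young replicate 1 stood apart, while young replicates 2 and 3 lay close to the aged libraries. Per length, each inducible transcript stayed below its constitutive partner in every library. Psmb8 stood at 198% to 302% of Psmb9 in aged and 156% to 182% in young libraries (exact permutation p = 0.1, n = 3 each).

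Relative to B2m, both classical heavy chains stood higher in every aged library than in any young one. The H2-K1 to B2m ratio was 21.1%, 18.4% and 21.3% in aged libraries, against 14.9%, 14.9% and 14.6% in young libraries (difference of mean log2 ratios 0.45; two-sided exact permutation p = 0.1, adjusted p = 0.18). The H2-D1 to B2m ratio was 46.3%, 37.8% and 41.8% in aged libraries, against 37.0%, 32.3% and 34.2% in young libraries (difference 0.28; exact permutation p = 0.1, adjusted p = 0.18). Neither pair of groups overlapped, while the H2-T23 to B2m ratio did (7.27% to 8.36% in aged and 6.42% to 7.52% in young libraries; exact permutation p = 0.2). The H2-K1 to H2-D1 ratio was 45.6% to 50.8% in aged and 40.3% to 45.9% in young libraries, also with overlap (exact permutation p = 0.2). Aged replicate 2 had the lowest aged value of both classical ratios and the highest of H2-T23 to B2m.

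**Figure D3:**
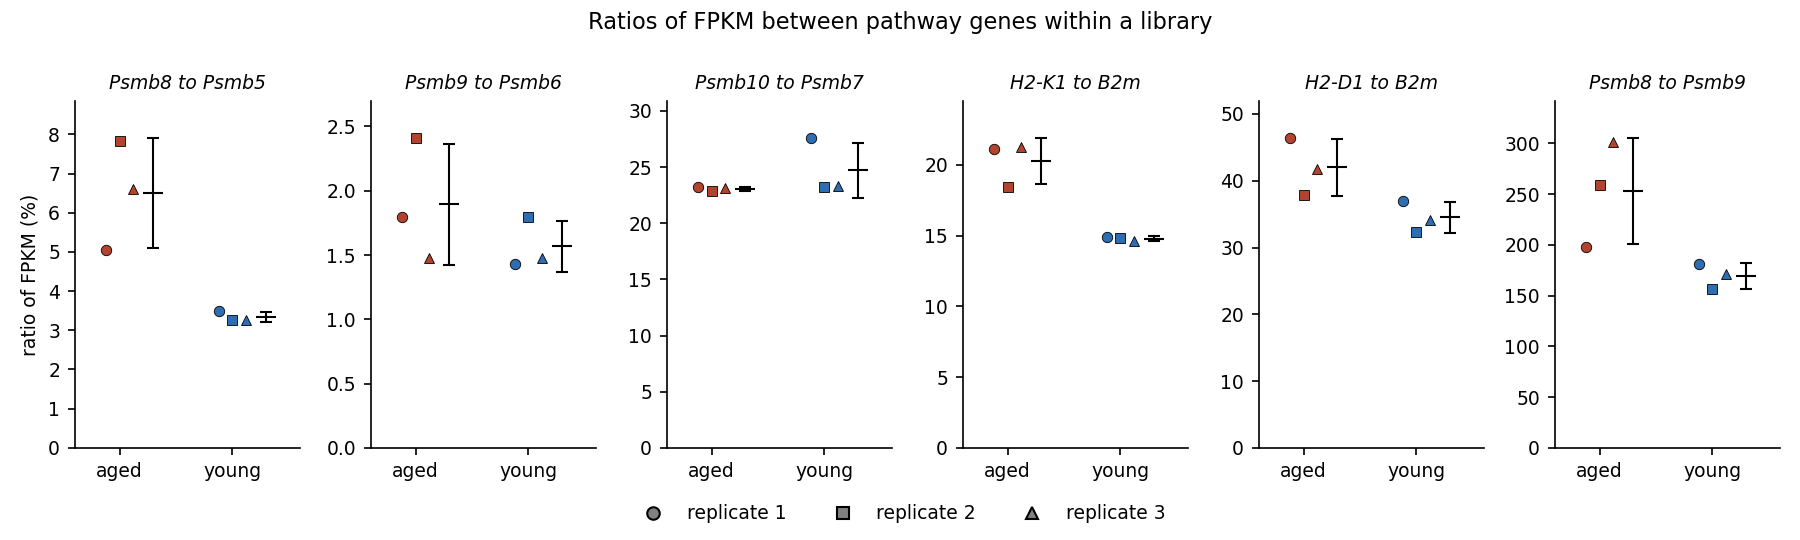
Ratios of FPKM between 2 genes of the same library, in percent, for 3 immunoproteasome subunits against the constitutive subunits they replace, for 2 heavy chains against B2m and for Psmb8 against Psmb9; aged red, young blue, symbols mark replicates and bars are mean ± SD of 3 mice. Psmb8 to Psmb5 and H2-K1 to B2m separate the groups, whereas Psmb9 to Psmb6 overlaps.

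Around the 10 genes, the rest of the class I pathway moved in a few places. The counts below stand beside 3.22% of all genes tested that rose and 3.64% that fell. Of 11 other class I and class I-like heavy chains tested, 1 rose, 0 fell and 10 did not pass, with a median log2 fold change of -0.00003. The one that rose was H2-T22, a non-classical heavy chain recognised by some gamma-delta T cells, at 38.6, 38.6 and 38.8 CPM in aged libraries, against 29.9, 25.3 and 29.1 CPM in young libraries (log2 fold change 0.46 ± 0.08 SE, edgeR adjusted p = 0.0148). Of its 50-base stretches 44.7% occur in other genes, mostly H2-T10, so its reads could include those of near copies, and without aged replicate 3 none of the 11 passed. Hfe, which binds the transferrin receptor, and the lipid-presenting Cd1d1 had higher aged values without overlap and did not pass (edgeR adjusted p = 0.0519 and 0.0837). In all, 4 of the 11 stood higher in aged libraries without overlap and 2 lower, against 15.5% and 16.2% of all genes tested. The 2 lower were H2-M5 (log2 fold change -0.35) and Fcgrt (-0.16), neither of which passed (edgeR adjusted p = 0.347 and 0.388).

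Of 7 other proteasome genes, 1 rose and 6 did not pass, where 3.22% of all genes tested rose. Psmb6, the constitutive partner of Psmb9, rose by 0.26 ± 0.06 SE on the log2 scale (118 to 122 CPM in aged and 95.3 to 103 CPM in young libraries; edgeR adjusted p = 0.0336). None of the 7 passed without aged replicate 1, aged replicate 3, young replicate 1 or young replicate 3. The activator subunits Psme1 and Psme2, which interferon induces in many cells, had log2 fold changes of 0.17 and 0.18 and did not pass (edgeR adjusted p = 0.253 and 0.402).

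Among 20 regulators and interferon signalling genes, 2 rose, 0 fell and 18 did not pass, with a median log2 fold change of 0.11. Of all genes tested, 3.22% rose. Nlrc5 was counted in 56, 85 and 58 reads in aged libraries, against 39, 28 and 28 reads in young libraries, and rose 2.0-fold (log2 fold change 1.0 ± 0.22 SE, edgeR adjusted p = 0.0311). Irf9, the DNA-binding part of the complex that carries type I interferon signals, stood at 21.3, 18.1 and 23.1 CPM in aged libraries, against 15.9, 13 and 14.4 CPM in young libraries (log2 fold change 0.53 ± 0.11 SE, edgeR adjusted p = 0.0288). Of the 20, 4 rose without aged replicate 2, 1 without young replicate 1, and 0 without any of the other 4 libraries. Stat2, which works with Irf9 in that complex, was higher without overlap, by 0.24 on the log2 scale, and did not pass (edgeR adjusted p = 0.105). In all, 5 of the 20 stood higher in aged libraries without overlap and 3 lower, against 15.5% and 16.2% of all genes tested. Those lower were Ifnar1, a chain of the type I interferon receptor (log2 fold change -0.17, edgeR adjusted p = 0.159), Rfx5 (-0.18, adjusted p = 0.190) and Ifngr2 (-0.11, adjusted p = 0.343), and none of them passed. Of the interferon genes, Ifng had 1 read in aged replicate 2 and 1 in young replicate 2. The other 4 on the list, of types I and III, are not among the 18228 genes under those symbols.

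**Figure D4:**
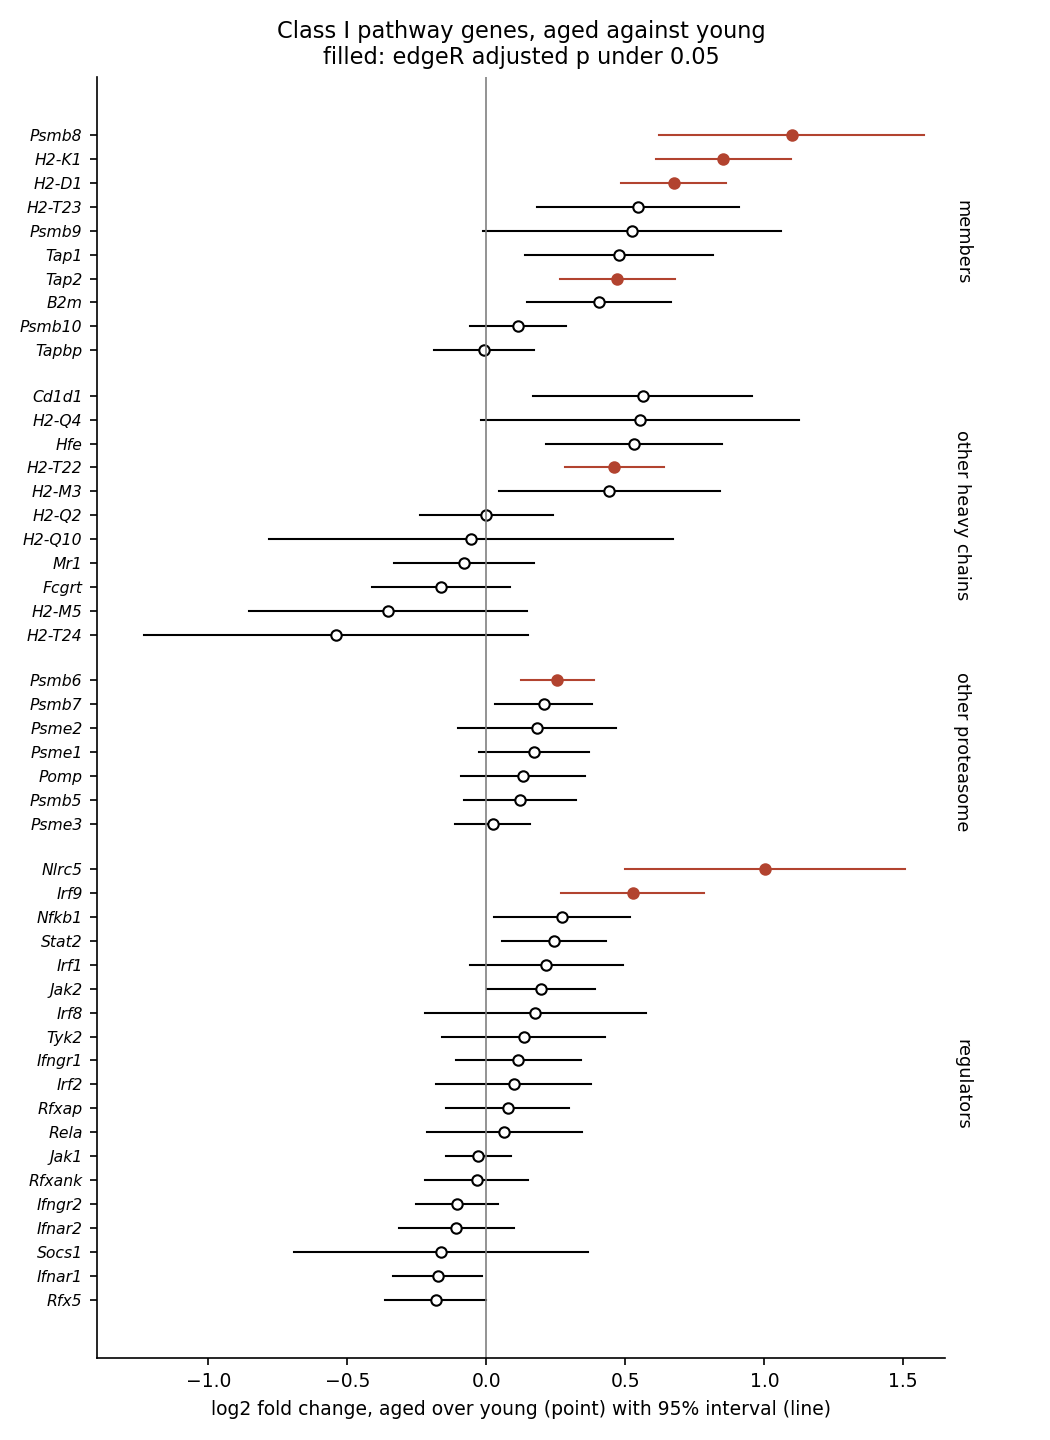
Log2 fold change of aged over young (points) with 95% intervals (lines) for the 10 members and tested genes of 3 other pathway groups; filled red points passed edgeR at an adjusted p under 0.05. Psmb8, H2-K1, H2-D1 and Tap2 passed among the members, and H2-T22, Psmb6, Nlrc5 and Irf9 among the others.

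In aged replicate 2, 8 of the 10 members had their highest level of all 6 libraries, and H2-K1 and H2-D1 were highest in aged replicate 3. Aged replicate 2 had the most counted reads, and the share of all genes tested that were highest in it was not determined. The count of 8 therefore cannot be read as particular to these genes. Most reads of Cd8a and Cd8b1, genes typical of CD8 T cells, were counted in aged replicate 2, and whether this bears on the class I levels was not tested. Cd8a, a chain of the T cell co-receptor that binds class I, was counted in 1, 60 and 6 reads in aged replicates 1, 2 and 3, against 1, 1 and 0 reads in young replicates 1, 2 and 3. Cd8b1, the partner chain, had 0, 45 and 1 reads in aged libraries, against 0, 1 and 0 reads in young libraries. Both chains were far higher in aged replicate 2 than in any other library. The pattern extended to some other genes of the T cell and NK cell list. Cd3d, part of the T cell receptor complex, had 19 reads in aged replicate 2 and 0 in each of the other 5 libraries, where a count of 0 allows up to 3 reads, or 0.167 to 0.174 CPM. The granule gene Nkg7 had 0, 35 and 1 reads in aged libraries, against 2, 0 and 1 reads in young libraries. Cd3e had 0, 8 and 4 reads in aged libraries, against 1, 1 and 0 in young libraries, and Cd3g 0, 13 and 4 reads in aged libraries, against 0, 0 and 2 in young libraries. Not every gene of the list followed this order: Cd4 had 10, 1 and 5 reads in aged libraries, against 3, 7 and 13 in young libraries, and was lowest in aged replicate 2, and Gzma had 0 to 2 reads in aged and 0 to 1 in young libraries. Of the genes of the list in the table, only Lck had enough reads to be tested, and those named here were chosen after their values were seen.

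The list of 10 T cell and NK cell markers, of which 9 are in the table, summed to 4.82, 15.4 and 6.23 CPM in aged libraries, against 5.16, 3.39 and 4.23 CPM in young libraries. Much of that sum came from Lck (4.15, 7.94 and 4.90 CPM in aged libraries, against 4.69, 2.87 and 3.34 CPM in young libraries), which was the 1 gene of the list with enough reads to be tested and did not pass (edgeR adjusted p = 0.164). Without aged replicate 2, H2-K1 (log2 fold change 0.84, edgeR adjusted p = 0.00611), H2-D1 (0.67, adjusted p = 0.00541), Tap2 (0.43, adjusted p = 0.0281) and Psmb8 (0.88, adjusted p = 0.0214) still passed. The log2 fold changes of the members that had not passed were smaller without it, at 0.39 for H2-T23, 0.32 for B2m, 0.33 for Tap1 and 0.34 for Psmb9. Without young replicate 2, the library with the most cortical and thalamic transcripts, H2-K1, H2-D1 and Psmb8 passed and Tap2 did not.

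**Figure D5:**
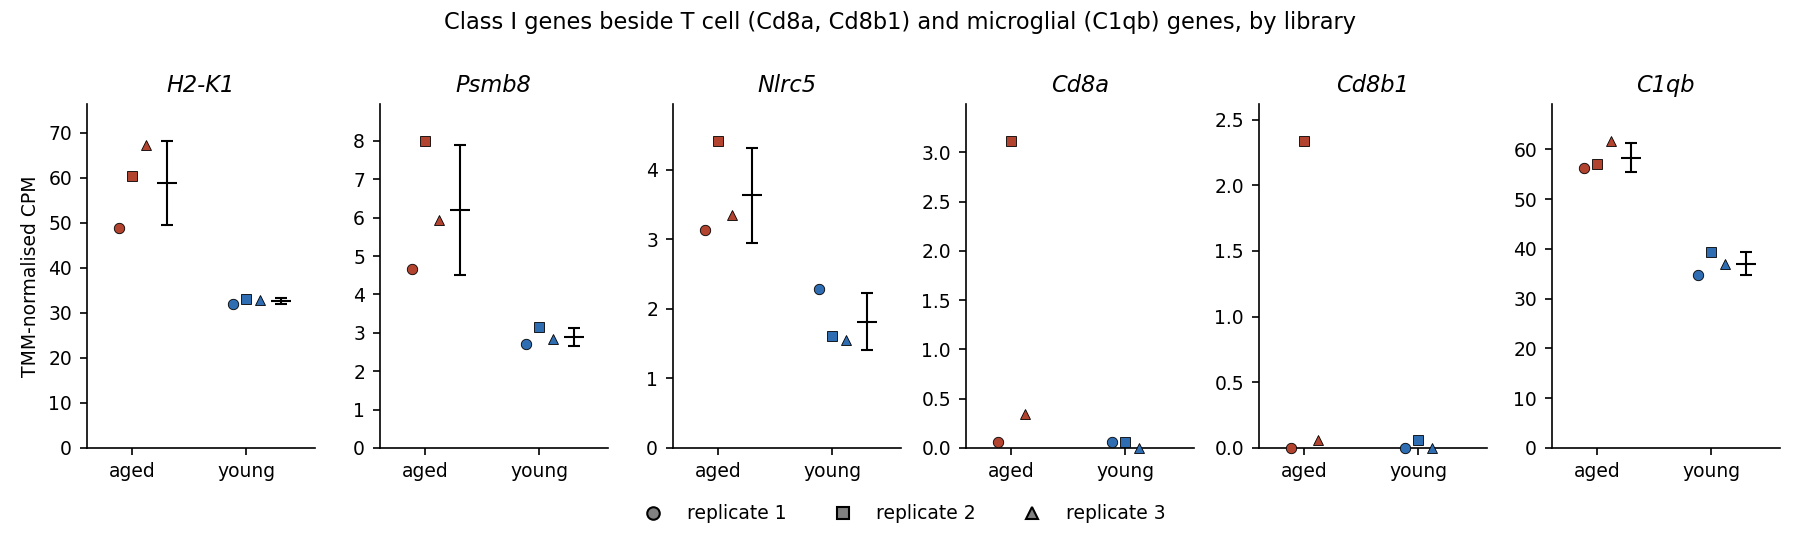
TMM-normalised CPM of H2-K1, Psmb8 and Nlrc5 beside the T cell genes Cd8a and Cd8b1 and the microglial gene C1qb in each library; aged red, young blue, symbols mark replicates, and bars, drawn for genes with reads in every library, are mean ± SD of 3 mice. Cd8a and Cd8b1 stand out in aged replicate 2 (squares), at 3.12 and 2.34 CPM, while H2-K1 and C1qb are higher in all 3 aged libraries.

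Several microglial markers were also higher in the aged libraries. Of 12, 5 rose (3 without aged replicate 1, aged replicate 3, young replicate 1 or young replicate 3), 1 fell and 6 did not pass, and their summed level was 460 to 506 CPM in aged libraries and 401 to 423 CPM in young libraries. Of all genes tested, 3.22% rose and 3.64% fell. In 9 of the 12 every aged library stood above every young one and in 2 below, against 15.5% and 16.2% of all genes tested. The complement genes C1qb (0.65 ± 0.07 SE), C1qa (0.63 ± 0.08) and C1qc (0.61 ± 0.09), together with Trem2 (0.47 ± 0.10) and Tyrobp (0.49 ± 0.12), rose on the log2 scale, and the purine receptor P2ry12 fell by 0.42. That fall passed in none of the total count and limma-trend settings, and of the fits that left out 1 library, only the one without aged replicate 2 called any marker lower. Cx3cr1, the fractalkine receptor, was lower in aged without overlap and did not pass (log2 fold change -0.64 ± 0.20 SE, edgeR adjusted p = 0.0859). Csf1r, the receptor on which microglia depend, had a log2 fold change of 0.04 (edgeR adjusted p = 0.660). Of 10 endothelial markers, 0 rose and 3 fell (Cldn5, Kdr and Tek; 1 fell when any one of the same 4 libraries was left out, and 5 without aged replicate 2), and the list summed to 203 to 244 CPM in aged libraries and 245 to 296 CPM in young libraries. Of these 10, 4 were lower in aged libraries without overlap and 0 higher, against 16.2% and 15.5% of all genes tested. Perivascular macrophage markers summed to 5.27 to 5.71 CPM in aged and 5.0 to 5.84 CPM in young libraries, and red blood cell markers to 79.4 to 251 CPM in aged and 91.0 to 183 CPM in young libraries. The part of any of these cell types in the class I differences was not tested.

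Of the genes listed as class I receptors, 2 had enough reads to be tested, both of them expressed by myeloid cells. Lilrb4a, an inhibitory receptor listed here for its family and not known with certainty to bind class I, was counted in 11, 27 and 25 reads in aged libraries, against 2, 3 and 9 reads in young libraries, and rose (log2 fold change 2.09 ± 0.52 SE, edgeR adjusted p = 0.0455). Pirb, a class I receptor of myeloid cells and neurons in mice, had 25, 13 and 14 reads in aged libraries, against 8, 5 and 7 reads in young libraries, and did not pass (log2 fold change 1.31 ± 0.40 SE, edgeR adjusted p = 0.0773). Both were higher in aged libraries without overlap, as were 15.5% of all genes tested, and both had fewer than 30 reads per library. Of 6 class II genes tested, 1 rose, 0 fell and 5 did not pass. Their median log2 fold change was 0.89, against 0.50 for the 10 class I members, so higher aged levels were not limited to class I. At an unadjusted p under 0.05 in edgeR, 3 of the 6 differed. The one that rose was H2-Ab1, a class II beta chain (log2 fold change 1.14 ± 0.29 SE, edgeR adjusted p = 0.0455). It had 31, 53 and 49 reads in aged libraries, against 13, 20 and 25 reads in young libraries. Cd74, H2-Aa and H2-Eb1 were higher on average, with overlap between the groups, and did not pass. Among the single libraries, leaving out young replicate 2 kept a class II call, and leaving out any of the other 5 left none. Of the receptors, 1 passed without aged replicate 2 or young replicate 3, and 0 passed without any of the other 4 libraries.

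Over the 6 libraries, the mean standardised log2 CPM of the 10 members was most like the levels of Cd9 (Pearson r = 0.998), Ptprc (0.996), Pvalb (0.994), Ndufb9 (0.992) and Rpl11 (0.991). These are the highest of 13001 candidate genes over 6 points, so values near 1 are partly set by the choice, and the points share library and depth. Ptprc, the leukocyte surface protein CD45, rose (log2 fold change 1.5 ± 0.31 SE; adjusted p = 0.0255 in edgeR), and the other 4 did not pass. With the mean of each age group subtracted, the most alike were Slc41a2, Lor, Mia, Zfp334 and Ift46 (r = 0.994 to 0.998), and none of these passed between the ages (edgeR adjusted p = 0.251 to 0.913).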

How the data were processed

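Hypothalamus RNA of 3 aged and 3 young mice was analysed, isolated with a mirVana kit and sequenced from stranded TruSeq mRNA libraries, per the labels' protocols. The authors deposited raw read counts per gene and FPKM for the same genes; the deposited FPKM equalled count over gene length and library total in 18228 of 18228 genes (relative tolerance 1e-06). The submitters' processing notes name Trimmomatic, HISAT2, Cufflinks, HTSeq, DESeq and the build GRCm39; versions, annotation, strand setting and the handling of multi-mapped reads remain not given in the sources used here. Psmb9 and Tap1 overlap on opposite strands and Tapbp overlaps Zbtb22, so their counts depend on that step.

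Genes were kept by filterByExpr (minimum count 10, total 15), scaled by TMM and tested with edgeR 4.0.16 in R 4.3.3 (biological coefficient of variation 8.52%), aged over young. Alternatives used DESeq2 1.42.0, limma 3.58.1, other scalings, filters and pseudocounts, and left out each library. The fit was tested on simulated data first. Replicates differed by more than sampling noise (3.91 to 11.6 chi-square units per degree of freedom), and each library counted as 1 mouse. Members and lists were chosen with earlier results of these data known. All 10 members are named; of other lists, up to 4 passing genes or, with none, the 2 with the smallest adjusted p, and genes named beyond that were chosen after their values were seen. Coordinates are GRCm38.p6, for RefSeq windows only. Protein sequences were not used here, and 1 gene of the regulator list is counted but not reported here or drawn.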

Additional observations from a re-analysis of the deposited data

How the results depend on the processing

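H2-K1 and H2-D1 kept their direction and call in all 19 settings, and Tap1, Psmb9 and Psmb10 stayed positive without a call in all 20. Of the 10 members, 2 to 5 rose and none fell when 1 library was left out, 6 rose in DESeq2 and 6 with the replicate block. Tapbp changed sign without ever passing, at 0.022 with total counts, 0.0021 with upper quartile factors, 0.00013 with no filter on low counts, 0.017 and 0.018 on log2(FPKM + 1) and log2(FPKM + 0.1), 0.017 with no filter on FPKM, and -0.074 to 0.043 without single libraries; the cause was not tested. Psmb8 lost its call on log2(FPKM + 1) with no filter (adjusted p = 0.0504). The Tap1 to Tap2 difference ran from -0.10 to 0.047 without single libraries. Among other pathway genes 6 rose; 2 did on log2(FPKM + 1) with no filter, 3 with the gene length trend removed and 0 to 7 without single libraries, and 1 fell with the replicate block. Over all genes 474 rose and 535 fell. On log2(FPKM + 1) 616 rose and 293 fell, on log2(FPKM + 0.1) 622 and 303, and with no filter on log2(FPKM + 1) 298 and 122. Total counts alone gave 627 and 446, and removing the length trend 385 and 355. Leaving out 1 library gave 95 to 901 higher and 55 to 732 lower. Of 456 list counts under these settings, 78 moved by over 1.5 times. Deviations from the group mean correlated at 0.10, 0.04 and -0.17 between same-numbered aged and young libraries, and at -0.13 to 0.10 between differently numbered ones. With 3 libraries per group, these values cannot show whether the numbers mark pairs. With the replicate block H2-T23 and B2m also passed. Psmb9 and the T cell genes had few reads, and the part of depth in their results was not tested.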
